A study of Mus musculus with 2 samples.

Results

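The cells described here are the 294 cells that the authors' annotation places in a cluster named CLP, out of 15835 annotated cells of mouse liver. They were chosen by that cluster name alone and matched by barcode to the UMI tables, and all of them were found there. The control library held 55 of them among 7669 annotated cells, and the c-Maf KO library held 239 among 8166. Liver endothelial and hematopoietic cells were isolated by fluorescence-activated sorting and captured in droplets for single-cell RNA sequencing. The control library came from mice labelled as endothelial cell controls, and the other from c-Maf KO endothelial cell mice, both at postnatal day 15. Each library pooled 1 male and 1 female mouse. The sources used here give neither the Cre driver, the alleles, the strain nor the gates of the sort. With 1 library per genotype there is no replicate error and no test, so every comparison below sets one library against the other, not one genotype against the other.

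B cells arise from lymphoid progenitors through pro-B and pre-B stages. Pro-B cells rearrange the immunoglobulin heavy chain with the RAG recombinase, and terminal transferase, encoded by Dntt, adds bases at the joints. A completed heavy chain first pairs with a surrogate light chain, made of the products of Vpreb1 or Vpreb2 and of Igll1, in the pre-B cell receptor, whose signal drives a burst of division before the cell, now a small pre-B cell, rearranges a light chain. The liver is a site of B lymphopoiesis in fetal life, and bone marrow takes over around birth.

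CLP cells had a median of 5374 UMIs in the control library (range 2018 to 14958) and 4059 (range 601 to 18687) in the c-Maf KO one. A median of 2130 and 1749 genes was detected per cell, and the median share of mitochondrially encoded UMIs was 4.80% and 4.51%. No CLP barcode occurred in both libraries, although 25 barcodes did so over all cells. Scrublet marked 1 of the 55 and 3 of the 239 cells as doublets, and these were kept. Maf, the targeted gene, stood at 9.32 CPM (UMIs of a gene in 1e+06 summed UMIs) in the endothelial cluster KOS_1 of the c-Maf KO library and at 2327 CPM in the endothelial cluster S2 of the control library, but at 1998 CPM in the 113 S2 cells of the c-Maf KO library.

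The pooled mice did not contribute alike. Cells with an Xist UMI and no UMI of 4 Y-linked genes are called female-type here, and the reverse male-type. Of the control CLP cells 43 were female-type, 4 male-type and 8 neither. Of the c-Maf KO CLP cells 97 were female-type, 70 male-type and 72 neither. Because nearly all typed control cells were female-type, differences between the libraries are given for female-type cells too where they bear on a result.

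The surrogate light chain genes were among the leading genes of the cluster. Vpreb1, Vpreb2 and Igll1 lie on chromosome 16 (GRCm38), where Igll1 (16860671 to 16863985, minus strand) and Vpreb1 (16868403 to 16870843, minus strand) are separated by 4417 bases, and Vpreb2 lies at 17980428 to 17981273 on the plus strand. The 250 bases before each RefSeq start (GRCm38.p6) are shown because these 3 genes were high together and because 2 of the windows are close copies. Capitals mark the hexamer CAGGTG or its reverse complement CACCTG, an E-box sequence that E proteins such as the products of Tcf3 and Tcf12 can bind. The windows are chr16:16869256-16869505 (minus strand), chr16:17980315-17980564 (plus strand) and chr16:16863986-16864235 (minus strand), each printed 5′ to 3′ on the strand of its gene.

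Vpreb1: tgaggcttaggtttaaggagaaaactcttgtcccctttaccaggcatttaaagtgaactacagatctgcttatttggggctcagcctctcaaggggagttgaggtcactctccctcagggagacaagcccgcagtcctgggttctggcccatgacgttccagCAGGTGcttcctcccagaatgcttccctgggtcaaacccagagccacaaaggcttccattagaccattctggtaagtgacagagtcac
Vpreb2: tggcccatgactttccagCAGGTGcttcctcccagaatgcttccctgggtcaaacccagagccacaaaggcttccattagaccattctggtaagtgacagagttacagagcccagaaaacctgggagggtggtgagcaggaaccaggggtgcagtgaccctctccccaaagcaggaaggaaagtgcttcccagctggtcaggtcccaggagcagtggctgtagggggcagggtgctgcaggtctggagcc
Igll1: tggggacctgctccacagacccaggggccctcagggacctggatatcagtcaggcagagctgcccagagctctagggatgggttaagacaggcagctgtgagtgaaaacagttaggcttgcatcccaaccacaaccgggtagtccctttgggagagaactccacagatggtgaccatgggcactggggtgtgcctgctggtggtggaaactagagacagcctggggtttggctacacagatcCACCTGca

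The hexamer stood 88 bases before the RefSeq start in Vpreb1, 232 in Vpreb2 and 8 in Igll1. The gene positions above are from GENCODE, whose starts differ for 2 of these genes. By those positions the Vpreb1 window lies inside the gene and the Vpreb2 window runs into it. For these 2 genes the distances therefore depend on the annotation. Read on both strands, it was present in 17.2% of 32851 promoter windows of this length and in 5 of 12 B lineage genes searched, counting each of these by its first listed start (Vpreb1, Vpreb2, Igll1, Cd79a and Rag1). A match describes letters in a window and not a bound site. The Vpreb1 and Vpreb2 windows share an unbroken run of 91 bases, and 104 of 106 aligned bases were identical. The sources used here do not say how reads that fit both genes were assigned, so the split of UMIs between Vpreb1 and Vpreb2 is uncertain.

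The 5 markers given for the cluster were present in both libraries, and nearly every cell carried most of them. A UMI of at least 4 of the 5 was found in 54 of 55 control cells (98.2%) and in 225 of 239 c-Maf KO cells (94.1%). Thinned to 2664 UMIs per cell, the 10th percentile of CLP depth, these shares were 96.2% and 94.8%. Since the cluster was made from these counts, its defining genes describe it and are no test of it.

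Vpreb1, one of the genes for the variable-like part of the surrogate light chain, stood at 4942 CPM in the control and 6303 CPM in the c-Maf KO library. Single cells held 0 to 64 Vpreb1 UMIs (median 30) in the control and 1 to 100 (median 27) in the c-Maf KO library. A Vpreb1 UMI was present in 98.1% of thinned control and 100% of thinned c-Maf KO CLP cells. The background was far lower: in cluster T-Cd6, T cells with median depths of 5609 and 5478 UMIs, these shares were 0.685% and 1.52%. Vpreb2 was lower, at 796 and 945 CPM. Igll1, the constant-like partner, stood at 2977 and 3162 CPM, with a median of 18 and 14 UMIs per cell.

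Dntt (chromosome 19, 41029275 to 41059525, plus strand) stood at 1209 CPM in the control and 1504 CPM in the c-Maf KO library, and its median was 6 UMIs per cell in both. Rag1, the catalytic subunit of the recombinase, stood at 276 and 370 CPM, and its neighbour Rag2, 5752 bases away on chromosome 2, at 71.3 and 81.8 CPM. A Rag1 UMI was present in 47.2% of thinned control and 53.8% of thinned c-Maf KO CLP cells (61.8% and 66.1% unthinned), against 0.457% and 0.505% of thinned T-Cd6 cells.

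The factors that establish B lineage identity were all detected. Ebf1, which specifies the lineage together with E proteins, reached 4115 and 4919 CPM and was seen in every cell of both libraries. Pax5, which commits cells to the lineage, stood at 276 and 361 CPM. Lef1, a nuclear effector of Wnt signalling found in pro-B cells, stood at 532 and 665 CPM but is shared with T cells: it was at 407 and 397 CPM in T-Cd6. The signalling partners of the pre-B cell receptor were present as well, with Cd79a at 2758 and 3311 CPM and the adaptor gene Blnk at 568 and 647 CPM. The heavy chain gene Ighm stood at 2258 and 2070 CPM. An Ighm UMI was present in 98.1% and 97.6% of thinned CLP cells, but also in 47.5% and 39.9% of thinned T-Cd6 cells, so a single UMI says little about a cell. Whether these transcripts came from a rearranged allele cannot be read from counts per gene.

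The cluster's name did not match this content. Of the genes of the common lymphoid progenitor that its abbreviation usually stands for, Flt3, Cd34 and Cd7 were near 0, and Kit was low. Flt3, the cytokine receptor that marks such progenitors, had 5 UMIs in the control and 0 in the c-Maf KO cells, and Kit, the stem cell factor receptor, had 12 and 27. Kit still stood above cluster B1, at 35.7 and 25.1 CPM against 5.0 and 1.54 CPM. A Kit UMI was present in 7.55% and 5.19% of thinned CLP cells, against 0.833% and 0.292% of thinned B1 cells. Cd34 had 0 and 5 UMIs, and Cd7 had none in either library. Of 11 lymphoid and multipotent progenitor genes tested against cluster C1, 3 (Kit, Satb1 and Adgrl4) were at least 2-fold higher and 2 lower. Against cluster CMP 1 of 10, Satb1, was higher and 6 were lower. Against B1 0 of 5 were higher and 1 was lower. Ly6d, which marks B-biased lymphoid progenitors and many later B cells, was at 208 and 193 CPM. Il7r, the receptor chain for interleukin 7, was kept, at 250 and 247 CPM. The cells are therefore called by the authors' cluster name or by their leading genes, Vpreb1, Igll1 and Dntt.

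Of the B cell clusters B1 was set beside CLP first, with 295 control and 1114 c-Maf KO cells. Counting genes that differed at least 2-fold in the same direction in both libraries, with intervals that exclude equality, 169 of 3772 tested genes (4.48%) were higher in CLP and 183 (4.85%) lower. Of 26 listed pro-B genes 21 were tested, and 7 were higher in CLP and 1 lower. Of 22 pre-B genes 16 were tested, and 9 were lower and 0 higher. Of 26 immature and mature B genes 21 were tested, and 11 were lower and 1 higher.

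Higher in CLP than in B1 were the surrogate light chain genes and Dntt. Vpreb1 stood at 38.0 and 46.2 CPM in B1, which makes CLP 130-fold and 136-fold higher. Igll1 stood at 9.99 and 16.9 CPM and Dntt at 4.0 and 1.85 CPM in B1. Vpreb2 had 0 UMIs in control B1 cells, so CLP was at least 266-fold higher there with a floor of 3 counts per cluster and library. Arpp21, Myl10, Grb7 and Selenom were also among the 8 genes furthest above B1. Arpp21, which encodes a small phosphoprotein and hosts a microRNA linked to B cell development, stood at 339 and 320 CPM in CLP against 0 and 0.308 CPM in B1. Erg, an ETS family factor, stood at 267 and 259 CPM against 14.0 and 13.3 CPM. Socs2, a feedback inhibitor of cytokine signalling, stood at 175 and 114 CPM against 9.99 and 14.5 CPM.

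Lower in CLP were genes of the small pre-B cell and of light chain expression. Il2ra, which encodes the CD25 surface marker of pre-B cells, had 1 and 7 UMIs in CLP, and stood at 77.0 and 102 CPM in B1. Cd2 stood at 17.8 and 15.8 CPM against 279 and 258 CPM. Igkc, the kappa light chain constant gene, stood at 796 and 584 CPM against 7557 and 7935 CPM. Ly6d, at 208 and 193 CPM here, reached 3176 and 2941 CPM in B1. Rgs16, a regulator of G protein signalling, had 0 UMIs in control CLP cells and 1.86 CPM in c-Maf KO ones, against 90.9 and 64.4 CPM.

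Some early genes did not separate the clusters. Rag1 was at 274 and 295 CPM in B1, with a log2 ratio of CLP over B1 of 0.02 (95% interval -0.34 to 0.36) in the control library. In the c-Maf KO library that ratio was 0.33 (0.16 to 0.50), above equality but under 2-fold. Ebf1, Pax5 and Il7r did not reach 2-fold either. The other recombinase gene, Rag2, did separate them. It was 2.74-fold and 2.46-fold higher in CLP, with 24 and 88 UMIs there. Against cluster CMP, whose leading genes are those of plasmacytoid dendritic cells, 361 of 4861 genes (7.43%) were higher in CLP and 644 (13.2%) lower, and of 22 tested pro-B genes 18 were higher and 2 lower. CMP carried Dntt in 31.4% and 22.7% of its cells but Vpreb1 at only 26.4 and 4.62 CPM.

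**Figure D1:**
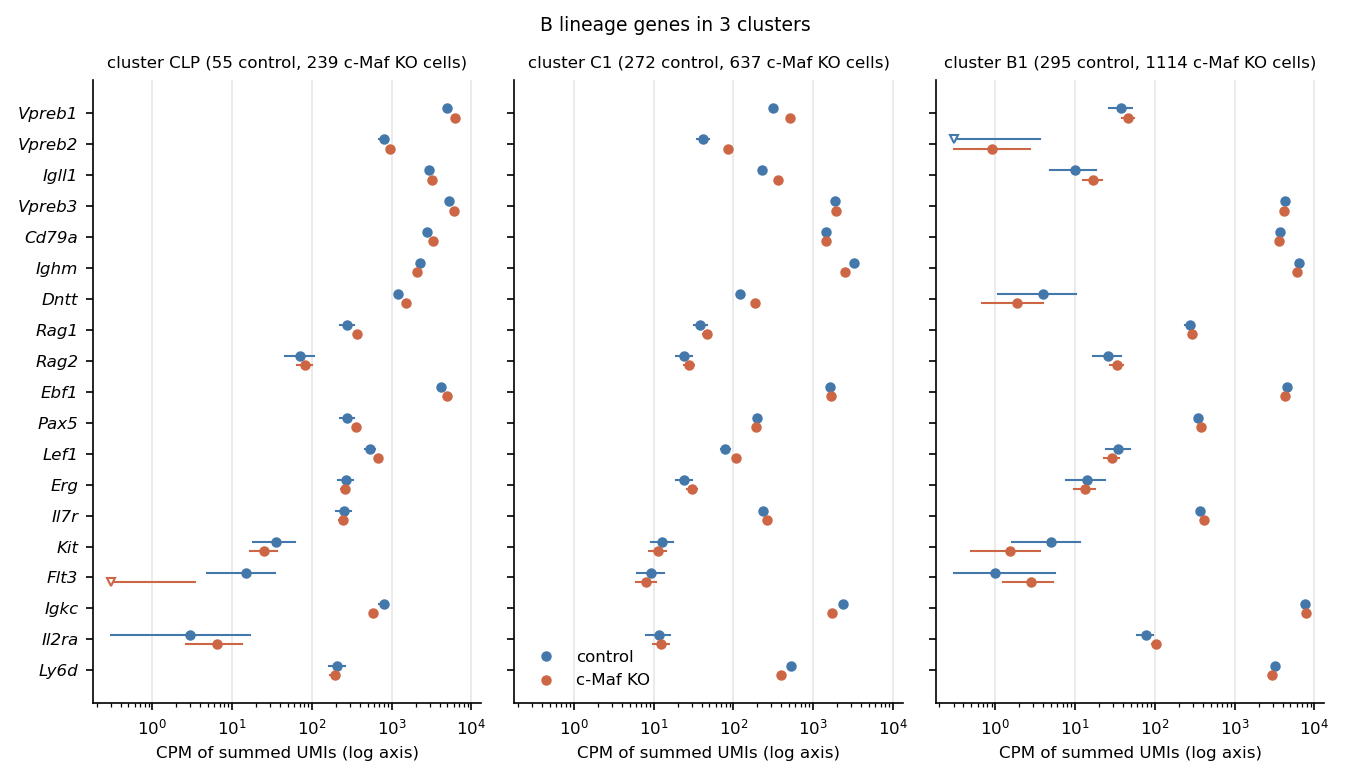
Levels of 19 B lineage genes in clusters CLP, C1 and B1, as CPM of summed UMIs on a log axis, with exact Poisson 95% intervals that cover counting error only. Points are the 2 libraries, and open triangles stand for sums of 0. Vpreb1, Igll1, Dntt, Lef1 and Erg lie higher in CLP than in B1, Igkc, Il2ra and Ly6d lie lower, and Rag1, Ebf1 and Pax5 lie close together.

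CLP was next compared with C1, which holds cycling hematopoietic cells of several lineages. Of 6505 tested genes 490 (7.53%) were higher in CLP and 582 (8.95%) lower. Of 34 S phase genes 33 were lower in CLP, and of 36 G2 and M phase genes 35 were lower. Mki67, a proliferation marker, stood at 20.8 and 15.8 CPM in CLP against 721 and 773 CPM in C1. Top2a, which encodes the topoisomerase that untangles sister chromatids, stood at 8.91 and 15.8 CPM against 1190 and 1142 CPM. Pro-B genes went the other way: 24 of 26 were tested, 12 were higher in CLP and 1, Ly6d, lower. Without cells that held a UMI of 10 cycling markers, which leaves 14 control and 17 c-Maf KO cells of C1, the counts were 35 higher and 12 lower.

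CLP cells themselves carried few transcripts of dividing cells. At equal depth, 1 of 53 control cells (1.89%, 95% interval 0.0478% to 10.1%), against 15 of 212 in the c-Maf KO library (7.08%, 4.01% to 11.4%), held a UMI of Mki67 or Top2a. Unthinned, these shares were 10.9% (6 of 55) and 11.7% (28 of 239). The same thinned shares were 1.25% and 3.65% in B1, 5.71% and 4.04% in T-Cd6, 3.38% and 5.07% in the B cell cluster B3, and 91.0% and 86.3% in C1. The CLP intervals include the T-Cd6 and B3 shares in both libraries, and the B1 share in the control library. In the c-Maf KO library the B1 share lies below the CLP interval. The endothelial cluster S stood at 5.19% in the control, inside the CLP interval. In the c-Maf KO library it stood at 0.813% (1 of 123), below the CLP interval. The thinned shares leave out 2 control and 27 c-Maf KO cells of lower depth. The authors' phase calls named S phase for 3.64% and 7.53% of CLP cells, and G2 or M for 5.45% and 0.837%, and no cycling is read from calls alone.

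**Figure D2:**
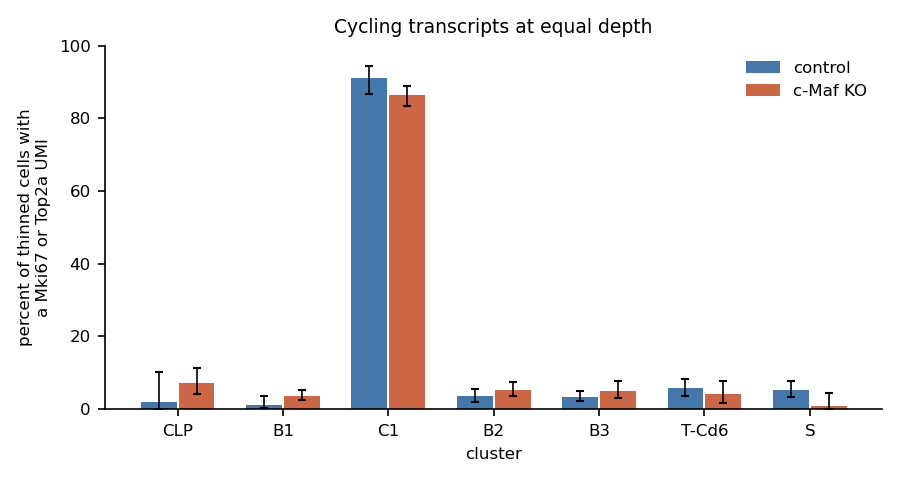
Share of cells in which Mki67 or Top2a was detected after thinning each cell to 2664 UMIs, by cluster and library, with exact binomial 95% intervals. C1 stands at 91.0% and 86.3%, and CLP at 1.89% in the control and 7.08% in the c-Maf KO library. In the c-Maf KO library B1 stands at 3.65%, B3 at 5.07%, T-Cd6 at 4.04% and S at 0.813%.

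Cycling cells with the same leading genes lay in C1 instead. With a threshold of 5 UMIs of Vpreb1 and Igll1 together, chosen after the values were seen, 110 control and 409 c-Maf KO cells passed in all clusters. In the control library 54 of them lay in CLP, 49 in C1 and 7 elsewhere. Of the c-Maf KO ones 231 lay in CLP, 155 in C1 and 23 elsewhere. Of those in either CLP or C1, C1 thus held 47.6% (95% interval 37.6% to 57.6%) and 40.2% (35.2% to 45.2%), and these intervals overlap. C1 cells were deeper, with medians of 9101 and 7714 UMIs, so a threshold in UMIs is easier to pass there.

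These C1 cells differed from CLP in more than division genes. Vpreb1 was lower in CPM, at 1137 and 1310, and so was Dntt, at 446 and 423 CPM. CPM is a share of all UMIs, and C1 cells were deeper. In counts, Dntt gave 365 UMIs in 49 control and 1014 in 155 c-Maf KO cells here. It gave 407 in 55 and 1618 in 239 CLP cells, so its counts per cell were close. Rag1 stood at 51.3 and 38.4 CPM, against 276 and 370 CPM in CLP. Higher than in CLP were Mki67, at 645 and 606 CPM, and Ccnd3, a cyclin needed for the expansion of pre-B cells, at 982 and 954 CPM against 294 and 334 CPM in CLP. Nrgn, a calmodulin-binding protein gene listed with the large pre-B cell, stood at 101 and 155 CPM against 11.9 and 3.72 CPM. The myeloid progenitor gene Mpo had 0 UMIs in these C1 cells of both libraries, while the rest of C1 held 1074 and 1885.

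CLP was not uniform. In the control library 10 of 55 cells (18.2%), and in the c-Maf KO library 34 of 239 (14.2%), held 5 or more UMIs of the light chain constant genes Igkc, Iglc1, Iglc2 and Iglc3, a threshold set after these values were seen. They held 90.6% and 84.2% of all light chain UMIs of the cluster. No light chain UMI was found in 26 control and 132 c-Maf KO cells. Median depths of the cells with 5 or more were 5222 and 3389 UMIs, against 5843 and 4300 in those with none.

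The cells with light chain UMIs had more transcripts of later B cells and fewer of Vpreb1, Igll1 and Dntt, but not of every pro-B gene. Ms4a1, which encodes CD20, stood at 359 and 289 CPM in them against 6.82 and 1.70 CPM in cells with no light chain UMI. Ly6d stood at 858 and 817 CPM against 6.82 and 64.4 CPM. Cd74, the invariant chain of class II antigen presentation, stood at 1357 and 1850 CPM against 27.3 and 28.8 CPM. Going the other way, Dntt stood at 764 and 578 CPM against 1242 and 1780 CPM. Igll1 stood at 2199 and 2034 CPM against 3534 and 3467 CPM, so both groups carried surrogate light chain transcripts. Rag1 was lower in both libraries, at 265 and 258 CPM against 314 and 381 CPM. Il7r was higher in both, at 328 and 270 CPM against 184 and 232 CPM. For both genes the separate intervals overlapped in each library, which does not show that the levels were alike.

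Ebf1 lay closer together, at 4117 and 4645 CPM against 4046 and 5091 CPM. Scrublet marked 0 of the 10 and 2 of the 34 as doublets. The part that merged droplets or free RNA play in these cells was not tested.

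**Figure D3:**
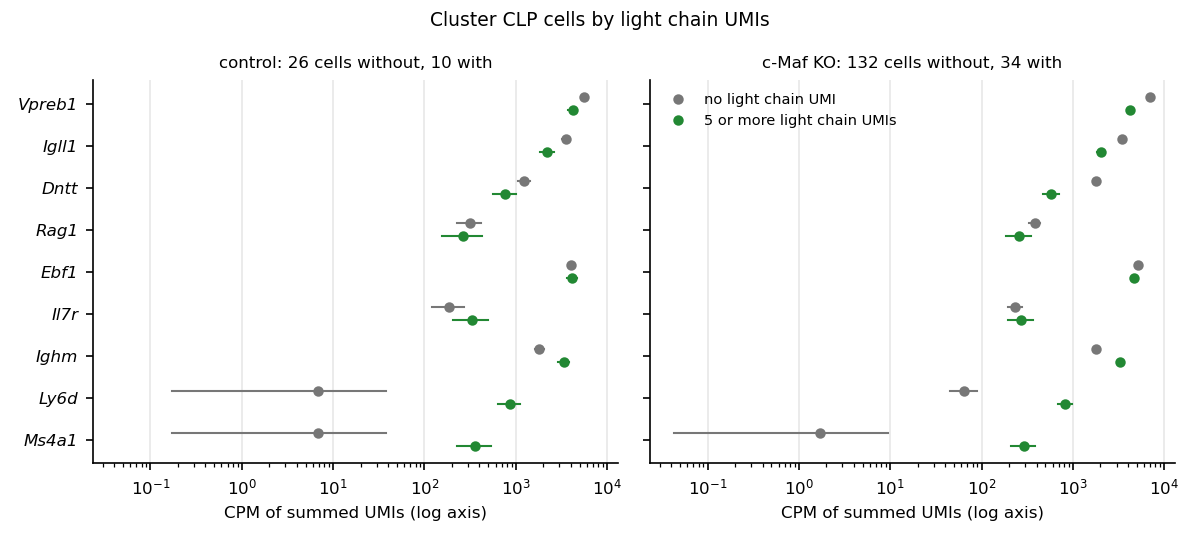
Levels of 9 genes in CLP cells with 5 or more light chain UMIs and in those with none, for each library, as CPM of summed UMIs on a log axis with exact Poisson 95% intervals. Ms4a1 and Ly6d lie higher in cells with light chain UMIs, Vpreb1, Igll1 and Dntt lie lower, and Ebf1 lies close together in both. The intervals of Rag1 and Il7r overlap in each library.

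Variable gene segments were sparse. Heavy chain V genes gave 10 UMIs in the control and 45 in the c-Maf KO cells, and kappa V genes gave 7 and 30. Ighv14-2 had the most heavy chain V UMIs, with 2 and 16. No lambda V, heavy D or joining segment had a UMI. The repertoire is not resolved at this depth.

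CLP made up a larger share of hematopoietic cells in the c-Maf KO library. It was 55 of 4599 in the control (1.20%, 95% interval 0.902% to 1.55%) and 239 of 5085 in the c-Maf KO library (4.70%, 4.13% to 5.32%), a ratio of 3.93 (2.92 to 5.37). Among the cells of the 4 clusters CLP, B1, B2 and B3, CLP made up 3.06% and 8.91%. B1 was higher alongside it, at 6.41% and 21.9%, and so was C1, at 5.91% and 12.5%. B3 was lower, at 18.1% and 9.42%. Of all annotated cells, CLP made up 0.717% and 2.93%.

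The size of the difference in share depended on which cells were counted. In female-type cells CLP made up 43 of 1691 (2.54%, 1.85% to 3.41%) and 97 of 2515 (3.86%, 3.14% to 4.68%), a ratio of 1.52 (1.05 to 2.23). In male-type cells it made up 4 of 1192 (0.336%, 0.0915% to 0.857%) and 70 of 1120 (6.25%, 4.90% to 7.83%), a ratio of 18.6 (6.96 to 70.3). For C1 the female-type ratio was 1.02 (0.849 to 1.22), an interval that includes equality, and for B1 it was 1.39 (1.18 to 1.64). With 1 mouse of each sex per library, a type stands for 1 mouse, and genotype and individual mouse cannot be told apart. Cells of neither type are left out, and a type needs a UMI and so depends on depth. These are therefore shares of typed cells and not of all cells of a mouse. The spread between the types in the control, 2.54% against 0.336%, was larger than the difference between the female-type cells of the libraries. The sort and the share of endothelial cells in it can also set these shares, and their part was not tested.

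**Figure D4:**
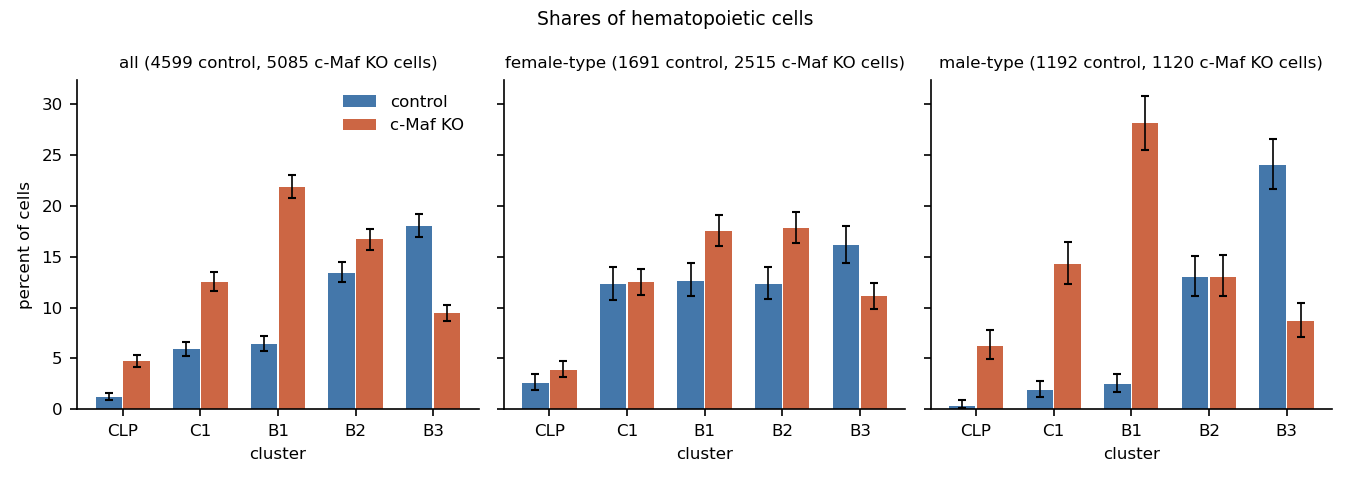
Share of hematopoietic cells in clusters CLP, C1, B1, B2 and B3 over all cells and by female-type or male-type, with exact binomial 95% intervals. CLP stands at 1.20% and 4.70% over all cells, at 2.54% and 3.86% in those of female-type, and at 0.336% and 6.25% in those of male-type.

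Within CLP the surrogate light chain genes, Dntt, Ebf1 and Lef1 differed by less than 1.5-fold between the libraries, while 14 other B lineage genes passed that size. Of 4051 genes with at least 50 UMIs, 95 (2.35%) were higher in the c-Maf KO library and 126 (3.11%) lower, 5.46% in all, by at least 1.5-fold with an interval that excludes equality. Over all genes with at least 20 UMIs the median log2 ratio, c-Maf KO against control, was -0.02. None of the 5 given markers reached 1.5-fold. Their log2 ratios ran from 0.09 for Igll1 to 0.35 for Vpreb1, with a median of 0.31, and Vpreb1 had an interval of 0.27 to 0.43. Rag1 had a log2 ratio of 0.42 (0.09 to 0.76) and Ighm of -0.13 (-0.24 to -0.00459), neither past 1.5-fold. In female-type cells Rag1 stood at 230 and 382 CPM, a log2 ratio of 0.73 (0.31 to 1.17). In male-type cells, of which the control had 4, it stood at 692 and 405 CPM, a log2 ratio of -0.83 (-1.66 to 0.27).

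Over 8 B lineage lists with 137 different genes, 94 had enough UMIs, of which 9 were higher (9.57%), 5 lower (5.32%) and 80 neither. Over all genes tested these shares were 2.35% and 3.11%, both smaller. The higher genes were Lyn and Btk, kinases that act downstream of the pre-B and B cell receptors, the factors Tcf12 and Klf2, the shared cytokine receptor chain Il2rg, Fcrla, H2-Ab1, H2-Eb1 and Iglc2. The lower genes were Socs2, Pim1, Ccnd2, Hmgb2 and Nfkb1. Of the 283 control UMIs of Hmgb2, 91 lay in 1 cell, so its place here leans on that cell. Of 22 tested pro-B genes 1 was lower, Socs2, and 0 were higher. Of 13 tested pre-B genes none was higher or lower. Of 19 tested genes of the pre-B receptor and its signal 2 were higher, and the list's median log2 ratio was 0.25.

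The interleukin 7 and STAT5 list held 3 of the lower genes among 10 tested, where 3.11% of all genes were lower. Pim1, a kinase gene induced by STAT5, stood at 571 CPM in the control and 315 CPM in the c-Maf KO library, a log2 ratio of -0.86 (-1.12 to -0.59). In female-type cells its log2 ratio was -1.14. Ccnd2, a D-type cyclin, stood at 163 and 72.5 CPM, and 1 control cell held 21 of its 55 UMIs. Socs2 stood at 175 and 114 CPM. Il2rg was higher, at 77.3 and 119 CPM, and Il7r itself had a log2 ratio of -0.02. The list's median log2 ratio was -0.14.

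Of 6 tested class II genes 3 were higher and 0 lower, where 2.35% of all genes were higher. H2-Ab1 stood at 53.5 CPM in the control and 101 CPM in the c-Maf KO library, H2-Eb1 at 11.9 and 67.9 CPM, and H2-Oa at 35.7 and 72.5 CPM. H2-Oa was spread over 12 control and 65 c-Maf KO cells and H2-Ab1 over 11 and 50, but H2-Eb1 lay in 4 and 10. A single c-Maf KO cell held 25 of the 109 H2-Ab1 UMIs. Of the 73 H2-Eb1 UMIs of the c-Maf KO library 68 lay in its 34 cells with 5 or more light chain UMIs, and so did 59 of its 109 H2-Ab1 UMIs. In the control 9 of 18 H2-Ab1 UMIs lay in the 10 such cells. Iglc2 had 1 and 74 UMIs, of which 45 lay in 1 cell.

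Other genes were named by size. The lowest in the c-Maf KO library, besides Ccnd2 and Pim1, were Rgs10, Cenpa, Med21, Nfkbiz, Selenop, Smap1, Mast4 and Slbp. Cenpa, the centromeric histone, stood at 134 and 64.2 CPM, with 15 of its 45 control UMIs in 1 cell. Selenop stood at 401 and 208 CPM, with 51 of its 135 control UMIs in 1 cell, the doublet-marked one described with the endothelial markers. Without that cell it stood at 258 CPM in the control and no longer passed. Mast4 was spread more evenly, with a UMI in 35 of 55 control cells against 86 of 239, and stood at 199 and 110 CPM.

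The highest in the c-Maf KO library were Cacna1e, Hspa1a, Hdac5, Hbp1, AY036118, Cerk, Cybc1, Arfgap2, H2-Ab1 and Rest. Cacna1e (chromosome 1, 154390731 to 154884501, minus strand), a calcium channel subunit gene, stood at 29.7 and 83.7 CPM, a log2 ratio of 1.43 (0.55 to 2.60), with a UMI in 9 and 65 cells. It was also present in B1, at 95.9 CPM in the control. Hspa1a, a stress-induced chaperone gene, had the same summed UMIs as Cacna1e, 10 and 90, but in 6 and 25 cells. Hdac5 stood at 38.6 and 86.5 CPM.

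**Figure D5:**
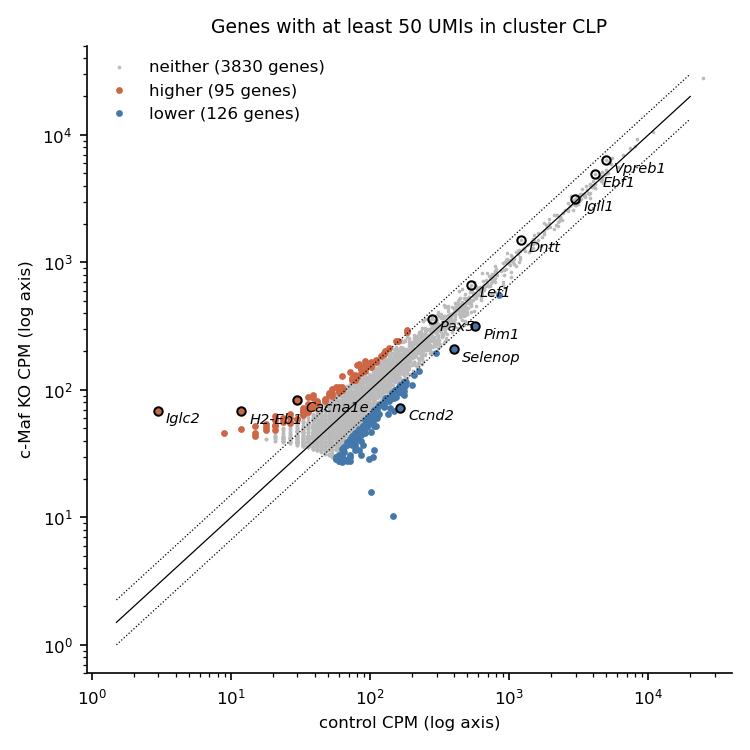
Each point is 1 of 4051 genes with at least 50 UMIs in CLP, with CPM in the control on the x axis and in the c-Maf KO library on the y axis, both log axes. Colours mark the 95 genes higher and 126 lower. The solid line is equality, the dotted lines 1.5-fold. Vpreb1, Igll1, Dntt, Ebf1, Lef1 and Pax5 lie within the dotted lines.

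Single control cells weighed on these counts. Among the 126 lower genes 30 had at least 20% of their control UMIs in 1 cell, and among the 95 higher genes 27 did, against 9.63% of the genes that were neither. Genes called higher tend to have few control UMIs, so 1 cell reaches that share easily, and their number says little here. Leaving out the richest cell of each gene in each library, which takes 1 of 55 and 1 of 239 cells, gave 184 higher and 45 lower. Leaving out 1 control and 4 c-Maf KO cells, in proportion to their numbers and chosen after the values were seen, gave 72 higher and 105 lower. In female-type cells alone 86 genes were higher and 96 lower, of which 32 and 42 were among those over all cells.

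Endothelial transcripts moved with the libraries. The 14 endothelial markers summed to 1186 CPM in control CLP cells and 612 CPM in c-Maf KO ones, all with a UMI in both, and 4 of the 7 tested were lower: Kdr, Fcgr2b, Dnase1l3 and Plpp3, where 3.11% of all genes were lower. A single control cell, marked by Scrublet as a doublet, held 184 of the 399 control UMIs of this list, among them 27 of the 34 of Fcgr2b and 22 of the 33 of Plpp3. Without that cell, an alternative chosen after the values were seen, the control sum was 662 CPM and 0 of the 4 markers still tested were lower. Over all genes 92 were then higher and 103 lower, of which 76 and 90 were among those over all cells. Stab2, a defining marker of sinusoidal endothelium, had 17 and 4 UMIs. Egfl7 and Eng, also on that list, were high in CLP itself, at 247 and 212 CPM and at 157 and 139 CPM, against 27.0 and 18 CPM in control B1. No member of the other marker lists was higher or lower, with 0 to 4 members tested in each. T and NK cell markers summed to 181 and 101 CPM, Kupffer markers to 98.1 and 105 CPM, and hepatocyte markers to 137 and 169 CPM. Erythroid markers summed to 190 and 133 CPM, with Klf1 and Slc4a1 at 0 in both libraries. Dendritic cell markers summed to 1206 and 1167 CPM, with Siglech, Cd209a and Itgax at 0. That list shares Tcf4 and Irf8 with the list of B lineage transcription factors, and Irf8 stood at 205 and 191 CPM. The part of these transcripts in the differences between libraries was not tested.

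Maf (chromosome 8, 115682942 to 115707794, minus strand) was detected in CLP in both libraries. It had 46 UMIs in the control, 137 CPM (100 to 182), and 93 in the c-Maf KO library, 86.5 CPM (69.8 to 106). The doublet-marked control cell held 17 of the 46 and a single c-Maf KO cell 12 of the 93. Without these the levels were 86.2 and 75.3 CPM. Maf was among the 126 lower genes, and without that control cell it no longer passed. In female-type cells Maf stood at 135 and 66.5 CPM, a log2 ratio of -1.02 (-1.75 to -0.30). The 37 female-type control UMIs include the 17 of the doublet-marked cell, so this ratio is not free of that cell. At equal depth a Maf UMI was found in 9.43% and 16.0% of CLP cells, against 5.71% and 4.04% of T-Cd6 cells, 5.83% and 5.26% of B1 cells and 96.0% of the control S cluster of endothelial cells. A gene level in these cells is no check of a deletion that the labels place in endothelial cells.

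Depth set what could be seen between the libraries. A gene with 50 UMIs over both sums could be counted only from 2.82-fold upwards or 1.96-fold downwards, one with 100 from 1.77-fold and 1.57-fold, and one with 200 from 1.53-fold and 1.5-fold. Kit, Flt3, all 10 cycling markers and 17 of 24 lymphoid and multipotent progenitor genes had fewer than 50 UMIs over both sums and were left out by that minimum. Among these cycling and progenitor genes 4 had intervals that exclude equality all the same, each lower in the c-Maf KO library: Flt3, with its 5 UMIs in 1 control cell, Mpo with 7 and 0 UMIs, Ccnb2 with 11 and 9, and Tpx2 with 4 and 1.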

How the data were processed

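The authors deposited, for each library, a table of whole UMI counts (32285 genes by cell barcodes) and an annotation with UMI and gene counts, the percent of mitochondrially encoded UMIs, a phase and sex call and a cluster name for each cell, per the file headers. The submitters' processing notes name Cell Ranger 4.0.0, Seurat 3.2.3, FastQC 0.11.3 and the mm10 build without saying what each was used for. Alignment and filter settings: not given in the sources used here. UMIs of the cells of a cluster were summed per library and divided by their total, as CPM.

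All 95% intervals (exact Poisson for levels, Clopper-Pearson for shares, conditional binomial for ratios) cover counting error only. For log2 ratios 0.5 UMI was added to each sum. A gene was counted as higher or lower between libraries when it had at least 50 UMIs over both sums, a ratio of 1.5-fold or more and an interval clear of equality, and between clusters at 2-fold the same way in both libraries with at least 50 UMIs in each. List medians used members with at least 20 UMIs. The CLP sums held 336535 and 1075591 UMIs. With 1 library per group no p-value was computed. Thinning drew 2664 UMIs per cell without replacement. Doublets were marked with Scrublet (scanpy 1.11.5), 2.69% and 2.33% of cells, and kept in the main values. The call was tried on simulated Poisson sums. These lack the crowding of UMIs in single cells seen here, so they do not show how the call behaves under it.

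The members and gene lists were chosen with earlier results of these data known. Of 428 listed genes 2 were not in the tables. Genes are named as given markers, the 5 most abundant or up to 3 higher and 3 lower members of a list, the 10 highest and 10 lowest between libraries with at least 100 UMIs, and the 8 furthest each way between clusters. Named beyond the rule after their values were seen are Egfl7, Eng, Stab2, Cd74, Ms4a1, Rag2, Nrgn, Ccnd3, Socs2 and Erg. Xist, Y-linked, predicted, mitochondrial, ribosomal, hemoglobin and variable segment genes were left out of the ranking. Positions are from GENCODE M21 and promoter windows from RefSeq. Alternatives were other filters, cells, scalings and folds. Python 3.11.15, numpy 2.4.6, scipy 1.17.1, pandas 2.3.3 and matplotlib 3.10.9 were used.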

Additional observations from a re-analysis of the deposited data

Results flagged for a closer look

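Barcodes that the authors' annotation leaves out also held surrogate light chain transcripts. At least 5 UMIs of Vpreb1 and Igll1 were found in 40 of 892 such barcodes of the c-Maf KO library (4.48%, 95% interval 3.22% to 6.06%), above the 27 of 1369 (1.97%, 1.30% to 2.86%) of the control. All 40, and 26 of the 27, had 5000 or more detected genes, and their median depths were 38054 and 40921 UMIs.

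For 3 genes the difference between the libraries had opposite signs in female-type and male-type cells, with both intervals away from equality. The male-type values rest on 4 control cells, and the difference between the types was not tested. The log2 ratio, c-Maf KO against control, of Igll1 was 0.17 in cells of female-type and -0.48 in those of male-type. Ebf1 had 0.29 and -0.35. Pim1 had -1.14 and 3.30, where the 4 male-type control cells held 0 Pim1 UMIs and the 70 c-Maf KO ones 96, so that its size has no meaning beyond the sign.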

How the results depend on the processing

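Against 95 genes higher and 126 lower in c-Maf KO CLP cells, the counts were 29 and 26 in male-type cells, 44 and 61 with each cell thinned, 184 and 45 without the cell with most UMIs of each gene, 150 and 225 at 20 UMIs, 16 and 6 at 200 UMIs, 161 and 367 with no minimum, and 34 and 29 at 2-fold. Of the 29 and 26 in male-type cells 0 were among the 95 and 126. With log2 ratios centred on the median the counts were 105 and 112, and with the top 5% of other cell types' transcripts removed 95 and 86.

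The share of CLP among hematopoietic cells was 2.54% in female-type, 0.336% in male-type control cells and 0.717% over all annotated control cells, against 1.20%. In the c-Maf KO library it was 3.86%, 6.25% and 2.93%, against 4.70%. The cycling share of 1.89% in the control was 0% in 4 male-type cells, which at that number cannot be told from any share, and 10.9% without thinning. The 7.08% of the c-Maf KO library became 0.837% at 500 UMIs, 11.7% without thinning and 1.89% when at least 2 UMIs of 10 cycling markers were asked for.

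Against B1, the 169 higher and 183 lower genes were 61 and 59 at 4-fold and 36 and 69 at 200 UMIs. Against C1, the 490 and 582 were 91 and 325 at 4-fold, 139 and 346 at 200 UMIs, and 35 and 12 without cells with a cycling marker. Against CMP, the 361 and 644 were 142 and 316 at 4-fold and 77 and 232 at 200 UMIs.

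In male-type cells the log2 ratio turned for Ccnd2 (1.32), Cenpa (1.20), Nfkbiz (1.82), Pim1 (3.30), Hdac5 (-0.75), AY036118 (-0.33), Cybc1 (-0.76), H2-Ab1 (-1.0) and Maf (0.50), with 4 control cells, and the cause was not tested. Among genes that were neither higher nor lower it turned there for Rag1 (-0.83), Lef1 (-0.53), Igll1 (-0.48), Ebf1 (-0.35), Vpreb3 (-0.34), Cd79b (-0.40) and Igkc (1.73). The median of all genes moved to -0.22 there and to 0.09 without the richest cell. Apart from the 9 turns of genes that were higher or lower, 323 values for single genes moved by less than their counting error and 38 by more. These 2 counts include the turns of genes that were neither. No paired analysis was possible because each group has 1 library.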
